A study of Gallus gallus with 16 samples.

Results

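A set of 10 genes of protein folding and stress signalling in the endoplasmic reticulum was followed in the jejunum of broiler chickens: HSPA5, HSP90B1, PDIA3, PDIA4, PDIA6, DNAJC3, EIF2AK3, XBP1, ATF4 and CALR. A gene was read where the platform annotation gives its symbol alone on a probe set, and of several probe sets for a gene the brightest was taken, by its mean across the arrays. By this rule 9 of the 10 genes were measured, out of 11528 genes in the table, and CALR was not analysed here. Each of 16 arrays carried jejunal RNA of male broilers at day 21, with 4 arrays for each of the diets A, E, F and H. The labels do not say whether a sample came from a separate animal; the samples are called birds below, and p-values measure only the spread between these samples. Diets are labelled by letter alone, without the additive or the control, and the series title names saponins and an oil blend made of star anise, oregano and other herbs. All values are log2 intensities from 1-colour arrays, and differences between diets subtract the earlier letter (H minus A).

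The endoplasmic reticulum is where secreted and membrane proteins fold. HSPA5 (also called BiP) and HSP90B1 (GRP94) are chaperones of its lumen, and the PDIA proteins are isomerases that form and rearrange disulfide bonds. When unfolded proteins pile up, sensors in the membrane set off the unfolded protein response: EIF2AK3 (PERK) phosphorylates eIF2 and slows translation while ATF4 is made, and spliced XBP1 drives genes of folding, transport and degradation. DNAJC3 is a lumenal co-chaperone that was first described as an inhibitor of eIF2 kinases. In the small intestine these genes are known for their place in the secretory cells, goblet cells above all, and in absorptive cells that build brush border enzymes and lipoproteins. A probe set on a whole transcript does not tell spliced from unspliced XBP1, and RNA levels do not report eIF2 phosphorylation.

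Arrays were comparable in scale, with medians between 5.94 and 6.10, and every diet mean of the 9 genes lay above the upper quartile of each array, which was 7.66 at most. Absorptive cell markers were high, with a mean over 16 measured markers of 11.64 to 12.16 on the arrays, and the lowest value of APOA1 was 13.47. Goblet cell markers averaged 9.82 to 10.58, while 7 markers of the exocrine pancreas averaged 4.93 to 5.32. The number of arrays, 4 per diet, limits the precision of every comparison.

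The chaperones and disulfide isomerases did not pass the test for any diet. Mean HSPA5 was 11.71 ± 0.18 for A, 11.64 ± 0.70 for E, 11.73 ± 0.27 for F and 11.86 ± 0.61 for H (SD, n = 4 birds each). The diet means of HSPA5 spanned 0.222, less than its pooled SD of 0.491 within diets, and the chaperones and disulfide isomerases rose and fell together in the same birds. DNAJC3 and ATF4 had their highest means on diet H and EIF2AK3 its highest on diets E and H, but none of them passed the test over all probe sets. Limma's moderated F test over the 4 diets called 0 of the 9 genes and 0% of the 20804 probe sets after adjustment, with a threshold of 0.05. At an unadjusted p under 0.05 it picked 2 of the 9, EIF2AK3 and DNAJC3, against 8.15% of all probe sets.

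**Figure D1:**
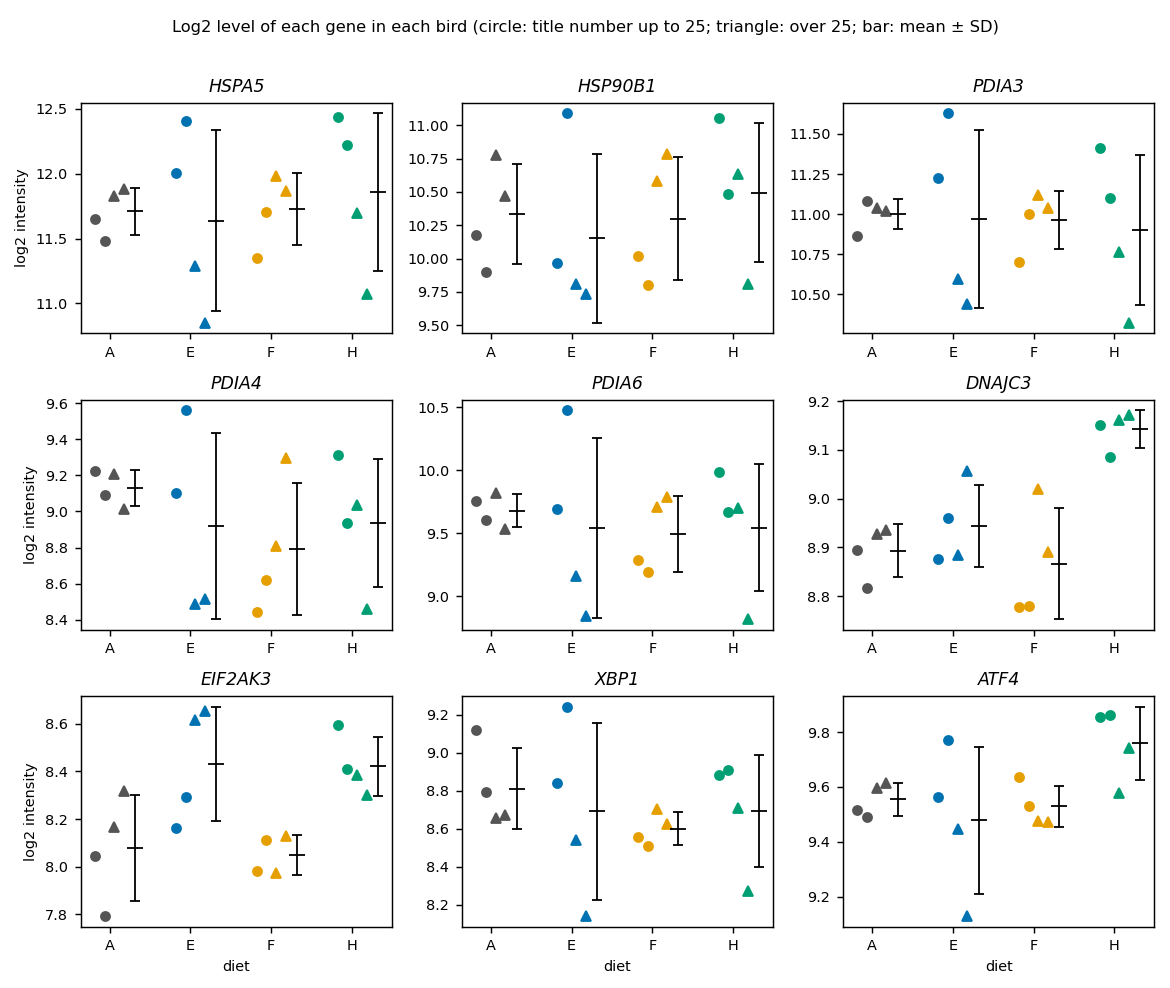
Log2 intensity (vertical axis) of each of the 9 measured genes in each bird, by diet (horizontal axis, 4 birds per diet). Circles are birds with a title number up to 25, triangles those over 25, and the bars give the mean ± SD of a diet. The 4 diet H birds lie between 9.08 and 9.17 for DNAJC3, above all other birds, while HSPA5 and the PDIA genes spread widely within diets E and H.

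Among the chaperones, HSPA5, the Hsp70 of the lumen and the main buffer of unfolded proteins, read 11.65, 11.48, 11.82 and 11.88 in the diet A birds. On diet E it read 12.004, 12.40, 11.29 and 10.85, on diet F 11.35, 11.71, 11.98 and 11.87, and on diet H 12.44, 12.23, 11.70 and 11.07. All 4 groups overlapped, and both the highest and the lowest birds belonged to diets E and H. HSP90B1, the lumenal Hsp90, read 10.18, 9.90, 10.78 and 10.47 on diet A and 9.97, 11.09, 9.81 and 9.74 on diet E. Its values were 10.02, 9.80, 10.58 and 10.78 on diet F and 11.06, 10.48, 10.64 and 9.81 on diet H. Again the groups overlapped, with the second bird of diet E well above the other 3 of that diet. Limma's adjusted p over the 4 diets was 0.965 for HSPA5 and 0.91 for HSP90B1.

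The disulfide isomerases followed the same course. PDIA3 (ERp57), which works on glycoproteins held by calnexin and calreticulin, read 10.86, 11.08, 11.04 and 11.02 on diet A, 11.22, 11.63, 10.60 and 10.44 on diet E, 10.70, 10.998, 11.12 and 11.04 on diet F, and 11.41, 11.10, 10.76 and 10.32 on diet H. The diet A birds lay within 0.22 of each other, and the diet E and diet H birds spread over 1.19 and 1.09. PDIA6 (P5), a partner of HSPA5, read 9.76, 9.61, 9.82 and 9.54 on diet A, 9.69, 10.48, 9.16 and 8.84 on diet E, 9.29, 9.19, 9.71 and 9.79 on diet F, and 9.99, 9.67, 9.70 and 8.82 on diet H. PDIA4 (ERp72) read 9.22, 9.09, 9.20 and 9.01 on diet A, 9.10, 9.56, 8.49 and 8.52 on diet E, 8.45, 8.62, 8.81 and 9.30 on diet F, and 9.31, 8.94, 9.04 and 8.46 on diet H. For PDIA4 and PDIA6 the third and the fourth birds of diet E and the fourth bird of diet H were among the low ones, and no pair of diets was free of overlap. Limma's adjusted p over the 4 diets was 0.992 for PDIA3, 0.973 for PDIA6 and 0.841 for PDIA4.

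The spread between birds was itself large. Pooled within diets, the SD was 0.491 for HSPA5, 0.506 for HSP90B1, 0.467 for PDIA6, 0.377 for PDIA3 and 0.366 for PDIA4, against a median of 0.226 over all genes. HSP90B1 varied more within diets than 94.3% of genes, HSPA5 more than 93.6% and PDIA4 more than 84.5%. All 5 genes had their smallest SD on diet A and their largest on diet E, for example 0.096 and 0.554 for PDIA3 and 0.131 and 0.715 for PDIA6. These 5 genes varied together, so this is not 5 separate observations, and the difference in spread between diets was not tested.

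DNAJC3 was the steadiest of the group. Its values were 8.89, 8.82, 8.93 and 8.94 on diet A, 8.88, 8.96, 8.88 and 9.06 on diet E, 8.78, 8.78, 9.02 and 8.89 on diet F, and 9.15, 9.08, 9.16 and 9.17 on diet H. Every diet H bird was above every bird of the other 3 diets, and the share of all probe sets so separated was not counted. Only 0.373% of genes had a smaller within-diet SD than its 0.0784. The difference was small: 0.25 against diet A (SE 0.090, 95% interval 0.06 to 0.44), 0.20 against diet E (SE 0.090) and 0.28 against diet F (SE 0.090, 95% interval 0.08 to 0.47). Limma's adjusted p was 0.309, 0.522 and 0.842 for these pairs, so DNAJC3 did not pass in any of them. DNAJC3 was the 1 gene of the 9 whose groups did not overlap in H minus A and the 1 in H minus E, where 6.07% and 5.33% of all probe sets had no overlap in either direction.

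EIF2AK3, the PERK kinase, had 2 levels of diet means. Its birds read 8.04, 7.79, 8.17 and 8.32 on diet A and 7.98, 8.11, 7.97 and 8.13 on diet F, and they read 8.16, 8.29, 8.61 and 8.65 on diet E and 8.59, 8.41, 8.38 and 8.30 on diet H. Both diets E and H lay wholly above diet F, and each overlapped diet A. The means of 8.43 on diet E and 8.42 on diet H were closer together than their SDs, as were those of 8.08 on diet A and 8.05 on diet F. The difference was 0.35 between diets E and A (SE 0.135, limma adjusted p = 0.613), 0.34 between H and A (SE 0.135, limma adjusted p = 0.357), 0.37 between H and F (limma adjusted p = 0.842) and -0.38 between F and E (limma adjusted p = 0.9998). Groups did not overlap for 1 of the 9 genes in F minus E (EIF2AK3; 2.01% of all probe sets), for 2 in H minus F (DNAJC3 and EIF2AK3; 4.04%), and for 0 in E minus A (3.86%) and F minus A (4.93%).

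The transcription factors had different orders of diet means. ATF4, which is translated when eIF2 is phosphorylated, read 9.52, 9.49, 9.60 and 9.62 on diet A, 9.57, 9.77, 9.45 and 9.13 on diet E, 9.63, 9.53, 9.48 and 9.47 on diet F, and 9.86, 9.86, 9.58 and 9.74 on diet H. Diet H had the highest mean, 9.76 ± 0.13, yet its birds overlapped each other diet. Its difference was 0.28 against diet E (SE 0.124, limma adjusted p = 0.521), 0.23 against diet F (SE 0.124, limma adjusted p = 0.842) and 0.20 against diet A (SE 0.124, limma adjusted p = 0.543). A second ATF4 probe set with lower values did not show this order, averaging 7.91 for A, 7.81 for E, 7.86 for F and 7.86 for H, and the correlation between the 2 probe sets was 0.637 across birds. XBP1 read 9.12, 8.79, 8.66 and 8.67 on diet A, 8.84, 9.24, 8.54 and 8.14 on diet E, 8.56, 8.51, 8.71 and 8.63 on diet F, and 8.88, 8.91, 8.71 and 8.27 on diet H. XBP1 thus shared its low birds, the fourth of diets E and H, with the chaperones, and its limma adjusted p over the diets was 0.912.

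Pair by pair, none of the 9 genes was called by limma in any of the 6 comparisons of diets, which share birds with each other. The share of all probe sets called was 0% in each pair except H minus A, where it was 0.00481% (1 probe set). With the range of the sample title numbers (up to 25, or over 25) as a block, H minus A had 111 probe sets called and still 0 of the 9 genes. An unadjusted p under 0.05 was reached by 1 of the 9 genes in E minus A (7.71% of all probe sets), 0 in F minus A (6.83%), 2 in H minus A (11.5%), 1 in F minus E (2.95%), 2 in H minus E (9.52%) and 2 in H minus F (5.27%). Each of these was DNAJC3, EIF2AK3 or ATF4, and none was HSPA5, HSP90B1 or a PDIA gene. The median difference over the 9 genes was -0.08 in E minus A, -0.03 in F minus A, 0.15 in H minus A, -0.05 in F minus E, 0.02 in H minus E and 0.14 in H minus F, beside medians between -0.03 and 0.03 over all probe sets. For the wider-spread genes the intervals leave room for sizeable differences in either direction: the 95% interval for HSPA5 between diets A and H ran from -0.52 to 0.82, and that for PDIA4 between diets A and F from -0.85 to 0.17. PDIA4 (-0.34, SE 0.241, limma adjusted p = 0.775), XBP1 (-0.21, SE 0.202, limma adjusted p = 0.838) and PDIA6 (-0.19, SE 0.301, limma adjusted p = 0.922) had the smallest p between diets A and F. Between diets H and E, HSP90B1 followed DNAJC3 and ATF4 with 0.34 (SE 0.325, limma adjusted p = 0.713). In E minus A, EIF2AK3 was followed by PDIA4 (-0.21, SE 0.241, limma adjusted p = 0.845) and ATF4 (-0.08, SE 0.124, limma adjusted p = 0.894). In F minus E it was followed by DNAJC3 (-0.08, SE 0.090) and PDIA4 (-0.12, SE 0.241), both with a limma adjusted p = 0.9998.

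**Figure D2:**
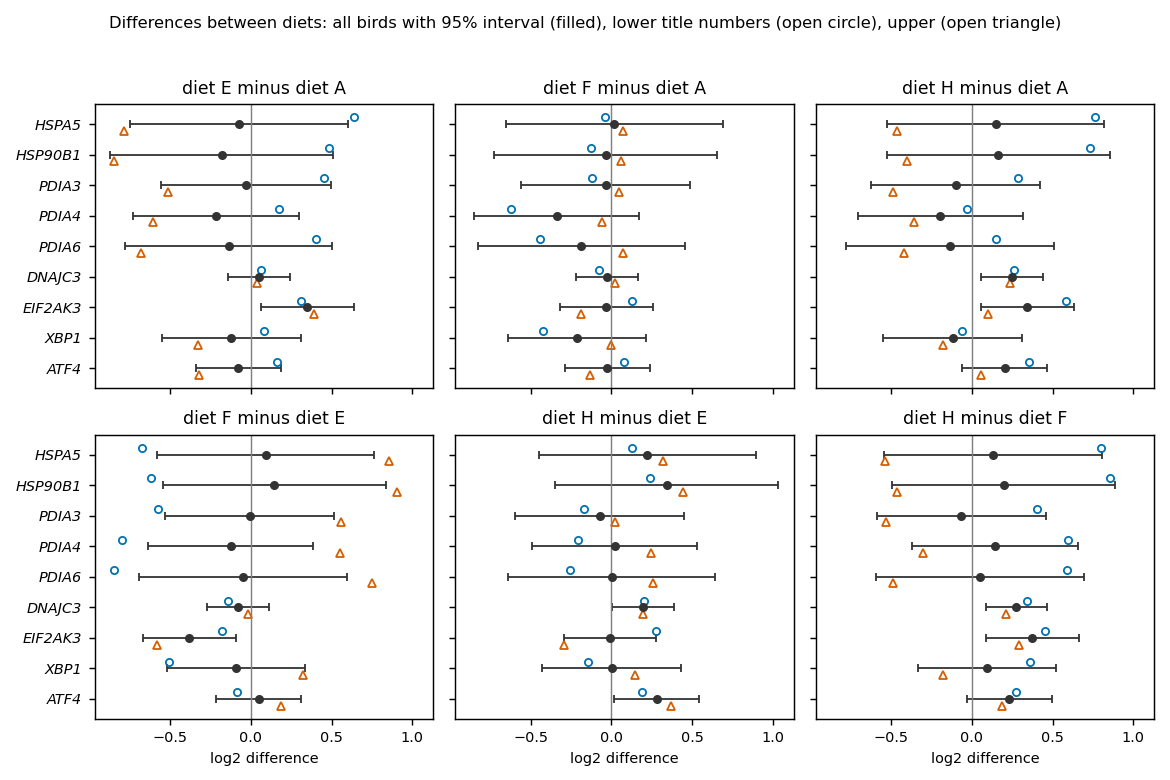
Log2 difference (horizontal axis) between 2 diets for each gene (vertical axis), in the 6 pairs. Filled points with bars give limma's estimate from all birds and its 95% interval, open circles the difference among birds with title numbers up to 25 and open triangles that among birds over 25. In E minus A the open symbols of HSPA5 lie at 0.64 and -0.78, on opposite sides of 0, while those of DNAJC3 in H minus A lie close together at 0.26 and 0.24.

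Title numbers of the birds fall into 2 ranges, up to 25 and over 25, with the first 2 birds of each diet in the lower range and the last 2 in the upper range, and the labels do not say what the numbers stand for. Within each range the numbers rise with the diet letter, lowest on diet A and highest on diet H. Diet and the order of the numbers therefore cannot be told apart within a range, also where a difference was alike in both ranges. In E minus A, F minus E and H minus F the 5 chaperones and isomerases had differences of opposite sign in these ranges. In E minus A, HSPA5 was 0.64 among the low numbers and -0.78 among the high ones, and HSP90B1 was 0.49 and -0.85. In F minus E, PDIA4 was -0.80 and 0.55, and PDIA6 was -0.84 and 0.75. In contrast, DNAJC3 differed by 0.26 and 0.24 in H minus A, and EIF2AK3 was 0.31 and 0.39 higher on diet E than on diet A. EIF2AK3 was less even in other pairs, with 0.58 and 0.10 in H minus A and 0.27 and -0.29 in H minus E. The interaction of diet and range in a limma fit over all probe sets called 0 of the 9 genes in each pair, with adjusted p of 0.496 or more, while it called 0% of all probe sets in each pair except F minus A (0.0192%). At an unadjusted p under 0.05, the interaction picked 6 of the 9 genes in E minus A (7.79% of all probe sets), 6 in F minus E (7.81%) and 5 in H minus F (4.11%). In H minus A it picked 4, EIF2AK3 among them (7.17%), in H minus E EIF2AK3 as the 1 gene (5.34%), and in F minus A 0 (4.68%). Because the genes vary together, these are not independent counts.

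Across the diets, XBP1 was lower in the upper than in the lower range by a log2 difference of -0.32 (SE 0.119, limma adjusted p = 0.116) and PDIA3 by -0.33 (SE 0.156, limma adjusted p = 0.198). Of the 9 genes 0 passed for this range difference and 1 had an unadjusted p under 0.05 in limma, against 8.39% and 25.2% of all probe sets.

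The chaperones and isomerases formed a block of genes that rose and fell together between birds. The second bird of diet E was above the own mean of each of the 5 genes, by 0.73 on average, and so was the first of diet H, by 0.54. The third and the fourth birds of diet E and the fourth of diet H were below it for all 5, by -0.44, -0.63 and -0.61 on average. Smaller shifts of all 5 genes were seen in the first bird of diet F, below by -0.34, and in the third of diet A and the last of diet F, above by 0.23 and 0.25. In diet A the same average stayed between -0.07 and 0.23, and on diet F between -0.34 and 0.25. EIF2AK3 ran against the block on diet E, where the 2 birds lowest in the chaperones had its highest levels of the whole series, 8.61 and 8.65.

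**Figure D3:**
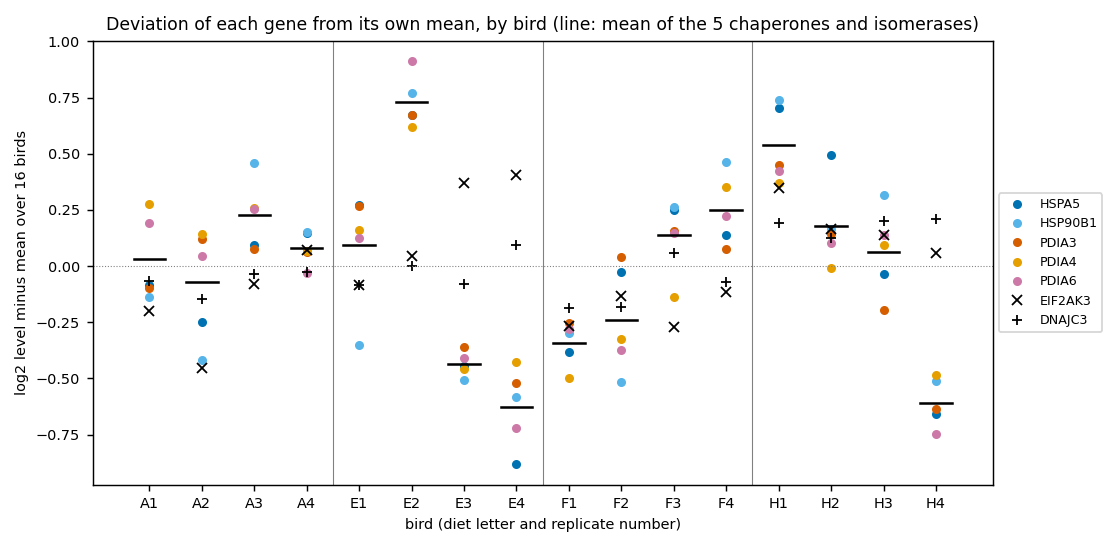
Deviation of the log2 level from the gene's own mean over 16 birds (vertical axis) for 5 chaperones and isomerases (dots), EIF2AK3 (crosses) and DNAJC3 (plus signs), by bird (horizontal axis, diet letter and replicate number). The black lines give the mean of the 5 dots, which runs from -0.63 in bird E4 to 0.73 in bird E2.

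All 10 pairs among HSPA5, HSP90B1, PDIA3, PDIA4 and PDIA6 were positively correlated across the 16 birds, with Pearson r between 0.70 and 0.923. The permutation test with 100000 resamples, two-sided and adjusted over the 36 pairs of the 9 genes, called 17 pairs, including each of these 10. HSPA5 and PDIA3 had r = 0.923 and Spearman rho = 0.912, both at 1e-05, the smallest p that the permutations can give, with an adjusted p of 9e-05 for r and 0.00024 for rho. Without the 2 birds farthest from the median of HSPA5 the r was 0.881, and it was 0.865 and 0.955 within the lower and upper ranges of title numbers. In each pair the birds left out were the farthest for the gene that comes first in the opening list. The birds left out thus differed between pairs. PDIA4 and PDIA6 had r = 0.919 (permutation test, p = 1e-05, adjusted p = 9e-05), rho = 0.894 (permutation test, p = 2e-05) and r = 0.923 without the 2 farthest birds. HSP90B1 and PDIA3 had the weakest relation of the 10, with r = 0.70 and rho = 0.656. Its passing depended on the second bird of diet E and the first of diet H: without them r was 0.50 and the adjusted permutation p = 0.131. After subtraction of the diet means the 10 correlations lay between 0.753 and 0.963. Within the title ranges they lay between 0.679 and 0.931 (lower, 6 of 10 called by exact permutation) and between 0.813 and 0.973 (upper, 8 of 10 called).

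XBP1 was tied to the same block, with r between 0.587 and 0.887 for its 5 pairs with the chaperones and isomerases, all 5 past the adjusted threshold. With PDIA6 the r was 0.887, rho 0.729 and r without the 2 farthest birds 0.796 (permutation test, adjusted p = 9e-05 and 0.00708 without these birds). The relation of XBP1 with HSPA5 no longer passed without birds E4 and H4 (r = 0.591 against 0.784, adjusted permutation p = 0.0539). That with HSP90B1 no longer passed without birds E2 and H1 (r = 0.412 against 0.587, adjusted permutation p = 0.23). Passing the threshold thus depended on the birds left out. ATF4 was more loosely tied, with r from 0.352 to 0.651 and 1 of 5 pairs called, the one with HSPA5 (adjusted permutation p = 0.0154, rho = 0.506 with an adjusted p of 0.101). The number of ATF4 pairs called was 0 of 5 by Spearman's rho and 2 without the 2 farthest birds of each pair. It was 3 after subtraction of the diet means, where r lay between 0.453 and 0.699. There the permutations shuffled birds across diets without regard to the subtracted means, so those p are too small. Over all birds DNAJC3 and EIF2AK3 were not tied to the block: their 14 pairs with the other genes had r between -0.247 and 0.333, and 0 passed, with 0 also at an unadjusted permutation p under 0.05. In the lower title range alone, 6 of these 14 pairs were called by exact permutation, with r between 0.309 and 0.90, and in the upper range 0 were, with r between -0.78 and 0.184. DNAJC3 and EIF2AK3 were correlated with each other, with r = 0.59 (adjusted permutation p = 0.0366) and rho = 0.585. Without birds H3 and H4 the r was 0.635. After subtraction of the diet means the r was 0.314 and no longer passed (adjusted permutation p = 0.342). The relation held in the lower title range, with r = 0.892 (exact permutation test, adjusted p = 0.0216), and not in the upper, with r = 0.092.

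**Figure D4:**
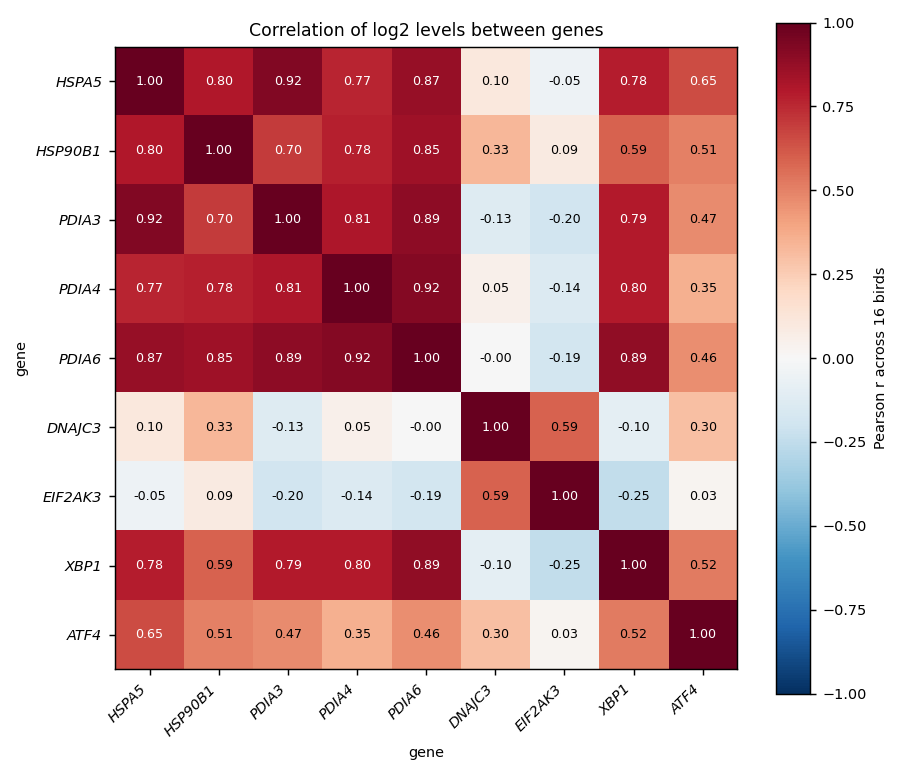
Pearson correlation of log2 levels across 16 birds for each pair of the 9 genes (rows and columns), as colour and number. The 5 chaperones and isomerases and XBP1 form a block with r between 0.59 and 0.92, and DNAJC3 and EIF2AK3 lie outside it with r of 0.33 or less to all of these.

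Relations of HSPA5 with EIF2AK3 and with DNAJC3 had opposite signs in the title ranges. HSPA5 and EIF2AK3 had r = 0.90 in the 8 birds of the lower range (exact permutation test, adjusted p = 0.0216) and r = -0.78 in the 8 of the upper range (exact permutation test, adjusted p = 0.0589), and HSPA5 and DNAJC3 had 0.854 and -0.39. The difference between the ranges was not tested. Pooled over 16 birds, r was -0.047 for EIF2AK3 and 0.102 for DNAJC3, and the latter became 0.608 (adjusted permutation p = 0.0484) without birds E4 and H4.

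Beyond the 9 genes, the 5 most like HSPA5 over the 16 birds are named here, several of them from the same pathway. Further down the order most genes lay outside the pathway lists below, and HSP90B1, with r = 0.801, came 53rd. Of 11527 other genes, HYOU1, a lumenal chaperone and exchange factor of HSPA5, had the highest r, 0.938. It was followed by AGR2, a disulfide isomerase of mucin-secreting cells, with 0.924, PDIA3, SEC11C, a catalytic subunit of signal peptidase, with 0.907, and FICD, which modifies HSPA5 by AMPylation, with 0.894. MTMR3, a phosphoinositide phosphatase, came next among genes outside the 9, with 0.88. Against the mean of the 9 centred genes the order was HYOU1 (0.945), SEC11C (0.932), SDF2L1 (0.925), CRELD2 (0.913), HERPUD1 (0.889) and AGR2 (0.883). SDF2L1 and CRELD2 are lumenal proteins induced by stress in mammals, and HERPUD1 takes part in degradation. These are descriptions over 16 birds, and the genes compared share the same arrays and scaling. None of these genes passed between diets in limma, with adjusted p between 0.841 and 0.987.

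Likeness was spread unevenly over the pathway. Of 138 further genes in 8 lists of the pathway, 34 (24.6%) had r of at least 0.6 with HSPA5, against 464 (4.03%) of all genes, and the median r was 0.364 against 0.006. Most of the 464 genes thus lay outside these lists. Chaperones and co-chaperones gave 7 of 17, among them DNAJB11 at 0.819 and the prolyl isomerase PPIB at 0.693, and the translocon and transport list gave 10 of 31, led after SEC11C by SEC61A1 at 0.811 and SEC61G at 0.803. Degradation genes gave 7 of 20, with HERPUD1 at 0.86 and the lectin ERLEC1 at 0.779, and glycan genes 4 of 13, all of them subunits of the oligosaccharyltransferase (DDOST 0.749, DAD1 0.737, RPN1 0.715 and RPN2 0.625). TUSC3, also a subunit of that complex and in the same glycan list, had 0.090. The list drawn up for disulfide isomerases and oxidases gave 3 of 12 genes, P4HB, TXNDC11 and ERP29. Among 8 sensors and 13 genes of eIF2 control 0 reached it, and among 24 genes known in mammals as targets of ATF4 and DDIT3 there were 3, MTHFD2, SLC7A1 and ASNS. The vesicle coat gene SEC23A went the other way, at -0.638. Without the 2 birds farthest from the median of HSPA5, the fourth birds of diets E and H, 16 of the 138 genes (11.6%) and 2.19% of all genes reached 0.6.

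**Figure D5:**
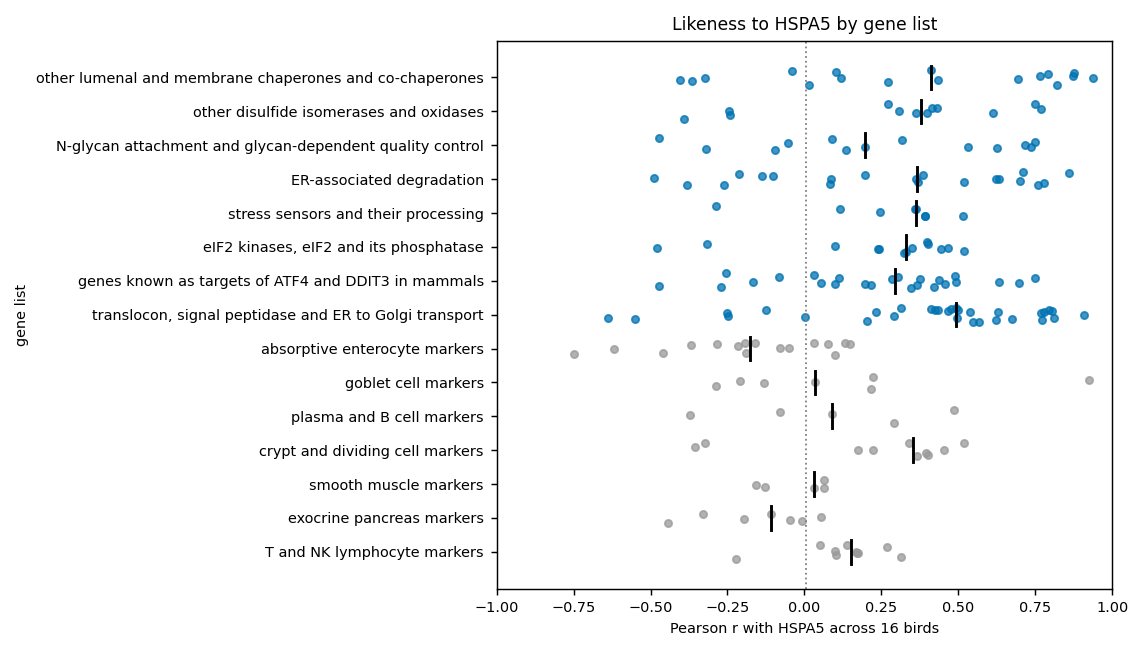
Pearson r with HSPA5 across 16 birds (horizontal axis) for each measured gene of 8 pathway lists (blue) and 7 lists of cell type markers (grey), with the median of each list as a black bar and that of all genes as a dotted line at 0.006. The pathway lists have medians between 0.197 and 0.494, and AGR2 is the one marker gene above 0.6.

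In the diets themselves the further pathway genes did not pass either. Limma called 0 of the 138 over the 4 diets, and 8 (5.8%) had an unadjusted p under 0.05, beside 8.15% of all probe sets. SLC38A2, a carrier of neutral amino acids that ATF4 is known to induce in mammals, had the smallest p among them, at 9.49 ± 0.21 for A, 9.40 ± 0.40 for E, 9.76 ± 0.58 for F and 10.51 ± 0.37 for H (SD, n = 4; limma adjusted p = 0.581). Next in that list were PSAT1 of serine synthesis, with means of 3.40, 3.83, 3.76 and 3.49 beside a lower quartile of the arrays of up to 4.61, and the methionyl-tRNA synthetase MARS1, with 9.84, 9.59, 9.9995 and 9.53. SEC62, a translocon partner that also acts in turnover of the reticulum, was at 8.04, 8.07, 8.14 and 8.54 (limma adjusted p = 0.597), and SRP9 and SRP54 of the signal recognition particle were also highest on diet H, at 8.50 and 8.12. In eIF2 control PPP1R15B, a subunit of the eIF2 phosphatase, had means of 8.91, 8.89, 9.09 and 9.22 (limma adjusted p = 0.597), the heme-regulated kinase EIF2AK1 6.96, 6.50, 6.79 and 7.20, and EIF2S2, the beta subunit of eIF2, 8.08, 7.85, 7.98 and 8.23.

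The remaining lists gave similar results. DNAJC10 averaged 8.14 for A, 8.08 for E, 8.22 for F and 8.44 for H, DNAJB9, a co-chaperone that restrains ERN1, 7.62, 7.73, 7.62 and 8.29, and FKBP10 5.73, 5.96, 5.99 and 5.85, with limma adjusted p from 0.67 to 0.695. ERN1 (IRE1), the sensor that splices XBP1, was at 8.30, 8.08, 8.02 and 8.27 (limma adjusted p = 0.644), CREB3L1 at 9.17, 9.36, 9.55 and 9.27, and MBTPS1, a protease that activates ATF6, at 7.79, 7.74, 7.65 and 7.84. In the disulfide list the smallest p belonged to TMX4, TMX2 and TXNDC11 (limma adjusted p 0.662 to 0.702). For glycan genes it belonged to TUSC3, EDEM3 and EDEM2 (0.605 to 0.749), and for degradation to UBE2J2, UFD1 and UBXN4 (0.689 to 0.745). TUSC3 had means of 5.86, 5.18, 5.44 and 5.51, with diet A highest. None of these genes passed.

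Markers of other cells varied beside these results. Crypt and dividing cell markers, 10 of 12 measured, averaged 6.40 to 7.09 on the diet A arrays and 5.39 to 7.16 on diet E. On diet F they averaged 5.64 to 6.19 and on diet H 5.24 to 6.86. Of the 10, 9 were lower in H than in A, 8 in E than in A and 8 in F than in A. Limma called 0 of them in each of these pairs (0.00481% of all probe sets in H minus A, 0% in E minus A and F minus A). At an unadjusted p under 0.05 there were 6 in H minus A (11.5% of all probe sets), 1 in E minus A (7.71%) and 4 in F minus A (6.83%). These pairs share the diet A birds, so the counts are not independent. Among these markers LGR5 averaged 4.14 and SMOC2 4.23 over all arrays, beside a lower quartile of the arrays of up to 4.61. Absorptive cell markers, 16 of 18 measured, averaged 11.65 to 11.95 on diet A, 11.64 to 12.16 on diet E, 11.90 to 12.02 on diet F and 11.90 to 12.12 on diet H. Of the 16, 10 were higher in E than in A, 13 in F than in A and 14 in H than in A. Of 7 goblet cell markers 6, 5 and 6 were higher in these pairs, and of 10 lymphocyte markers 9, 8 and 8 were lower. Limma called 0 of these markers. At an unadjusted p under 0.05 there were 2, 1 and 4 absorptive, 2, 3 and 2 goblet and 0, 0 and 2 lymphocyte markers. In such bulk samples, fewer cells of a type and less RNA per cell cannot be told apart, and the part of these markers in the levels of DNAJC3, EIF2AK3 and ATF4 was not tested.

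Across the 16 birds HSPA5 was not clearly tied to any of 7 marker lists. Pearson r was -0.441 with absorptive cell markers (rho = -0.327), 0.368 with crypt markers (rho = 0.276), -0.382 with pancreas markers, 0.22 with goblet, 0.167 with lymphocyte, 0.132 with plasma and B cell and -0.0384 with smooth muscle markers, and the permutation p adjusted over the 7 lists was 0.377 to 0.886. Without the fourth birds of diets E and H the first 2 values became -0.123 and -0.0441. After subtraction of the diet means they were -0.553 and 0.546, each with an adjusted permutation p = 0.101. Within the upper range of title numbers the absorptive list had r = -0.907 (exact permutation test, adjusted p = 0.0269), with APOB and MEP1A the members lowest in r over all birds, and within the lower range it had 0.0986. AGR2 was the exception in the goblet list, where MUC2, the main secreted mucin, and the other measured members had r of 0.224 or less.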

How the data were processed

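Jejunal RNA of 16 samples was made into DNA (Ambion WT Expression Kit) and biotin-labelled (Affymetrix WT Terminal Labeling Kit), per the labels' protocols, and GCOS 1.1.1 is named per the submitters' processing notes. The authors deposited 1 table of 20804 probe sets, whose values (0.785 to 14.5) were read as log2 intensities already scaled between arrays. Sources used here do not give the log base, summarization or normalization. Symbols came from GEO's platform annotation, and gene numbers of the 9 genes were found in the RefSeq table.

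Diet means were fitted over the 16 arrays with limma 3.58.1 in R 4.3.3, with Benjamini-Hochberg adjustment over all probe sets and a threshold of 0.05. The F test and 6 pairs were taken from it. The interaction with title range and the range difference were chosen after seeing the data. The correlations of HSPA5 with the marker and pathway lists were too, over all birds, without 2 birds and within a range. So were the marker correlations after subtraction of the diet means. Correlations used Pearson's r and Spearman's rho with 100000 permutations, or all permutations for 8 birds. After subtraction of the diet means all 16 values were shuffled without regard to those means, so the p of that setting are too small. The scripts were tested on simulated data. The genes, lists and tests were chosen with earlier results of these data known. Text names all 9 genes, the 3 smallest p per pair, the 3 smallest F p per further list, and the 6 and 5 genes most like the mean of the 9 and HSPA5; list genes with r of at least 0.6 and markers were chosen after their values were seen. Alternatives were a block or covariate of title numbers, other scalings, a filter on low probe sets, moderation with trend, fewer arrays and the other ATF4 probe set. Promoter and protein sequences were not analysed here.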

Additional observations from a re-analysis of the deposited data

Results flagged for a closer look

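In diet E, HSP90B1 read 11.09 in the second bird against 9.74 to 9.97 in the other 3, a gap that is large for the range of 4 values. It was the 1 such case among 36 groups of 4 birds, and chance gives about 1 in 20, so 1 case is no more than chance gives. The same bird was also the highest of its diet for HSPA5, PDIA3, PDIA4, PDIA6 and XBP1.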

How the results depend on the processing

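None of the 9 genes was called in the F test or in any pair under any alternative run, leaving out each bird included (0 to 0 genes called). Over all probe sets, the F test called 1 with median centring, without the lowest 25% of probe sets, and with trend and robust moderation, against 0. In H minus A, 111 were called with the title range as a block and 0 with only these arrays or within either range, against 1. Leaving out 1 bird gave 0 to 1 calls in E minus A, 0 to 2 in F minus A, H minus A and H minus E, 0 to 10 in F minus E (10 without diet H replicate 1, 5 without diet F replicate 4), and 0 to 0 in H minus F and the F test. The median difference of the 9 genes was 0.31 in the lower and -0.51 in the upper title range in E minus A, -0.58 and 0.55 in F minus E, 0.46 (0.455) and -0.30 in H minus F, and -0.36 in the upper range in H minus A. Without 1 bird it ran from -0.30 to 0.06 in E minus A, -0.13 to -0.01 in F minus A (-0.00821 at most), -0.04 to 0.21 in H minus A, -0.19 to 0.15 in F minus E, -0.06 to 0.23 in H minus E and 0.02 to 0.29 in H minus F. Direction turned for PDIA4 (0.18) and ATF4 (0.16) in E minus A in the lower range, for XBP1 (0.00076) and PDIA6 (0.0712) in F minus A and PDIA4 (0.55) in F minus E in the upper range, and for ATF4 with the other probe set (-0.0578 in H minus A, -0.00672 in H minus F). The correlation of HSPA5 turned in the lower range for absorptive (0.0986), plasma (-0.30), crypt (-0.0448) and lymphocyte (-0.084) markers, without the 2 farthest birds for plasma (-0.269), crypt (-0.0441) and lymphocyte (-0.0819) markers, and in the upper range for smooth muscle (0.151). Without 1 bird, ATF4 in E minus A ran from -0.174 to 0.0396 and PDIA4 in F minus E from -0.292 to 0.0904. The cause was not tested. Correlated pairs numbered 12 in the upper range and 16 to 19 under the other settings, against 17. Pathway genes with r of at least 0.6 numbered 16 without the 2 farthest birds (2.19% of all genes), 29 in the lower range (6.97%) and 58 in the upper (14.2%), against 34 (4.03%). No paired analysis was possible because the labels give the birds no shared replicate numbers across diets, and the title range is a block of 2 birds per diet, not a pairing. Neighbouring title numbers as a random block had an estimated correlation of 0.173.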
